A study of Mus musculus with 16 samples.

Results

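The Btg and Tob genes encode a small family of antiproliferative proteins, and their transcripts were followed here in the hippocampus of 16 mice. The 5 genes Btg1, Btg2, Btg3, Tob1 and Tob2 were taken by name from the 49315 gene rows of the deposited count table, and all 5 were among the 17469 genes with enough counts to be tested. Btg2 led to the choice of the family: it was selected on its measured level, which was higher on the ketogenic diet in wild type but not in the knockout. The other 4 genes were included as relatives. That choice used all 4 groups, so no difference of Btg2 between groups is tested. Its correlations within groups, which do not use the group means, are. The remaining family rows held few or no reads. Btg4 had 0 to 7 counts per library, 36 in all, and the pseudogenes Btg1-ps1 and Btg1-ps2 had 0 counts in all libraries.

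The mice formed 4 groups of 4 libraries: wild type on a standard diet, wild type on a ketogenic diet, Kcna1 knockout on a standard diet, and Kcna1 knockout on a ketogenic diet. The Kcna1 protein is a subunit of voltage-gated potassium channels, and mice that lack it have spontaneous seizures. Ketogenic food supplies mostly fat and little carbohydrate, so that the body burns ketone bodies. The labels give no age, sex, strain or diet duration and do not describe the knockout allele. Total counts per library ran from 13440230 to 22309504, and the wild-type ketogenic libraries, at 16913113 to 22309504, were all deeper than the wild-type standard diet libraries, at 14481657 to 15844164. Kcna1 stood at 107 to 130 CPM, counts scaled to a common effective library size, in the 8 wild-type libraries and at 43.4 to 47.2 CPM in 7 of the 8 knockout libraries. The library labelled knockout KC888LL, on the standard diet, had 82.0 CPM of Kcna1. Member results that rest on the knockout standard diet group are therefore also given without that library where their call or sign changes. Some results of the gene and marker lists are given without it too. The X-linked Xist was above 100 CPM and the Y-linked Ddx3y below 10 CPM, as in female mice, in 3 of 4, 2 of 4, 3 of 4 and 4 of 4 libraries of the wild-type standard, knockout standard, wild-type ketogenic and knockout ketogenic groups.

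Proteins of the family share an amino-terminal domain through which they bind the catalytic Caf1 subunits of the CCR4-NOT complex, the main enzyme that shortens the poly(A) tails of messenger RNAs. Tob1 and Tob2 also carry motifs that bind poly(A)-binding protein. By recruiting deadenylases the family promotes the decay of messages, and its members slow entry into the cell cycle and favour quiescence or differentiation. Btg2 is also an immediate early gene of stimulated neurons and a target of p53, and it marks neurogenic divisions of neural progenitors.

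On the GRCm38 assembly in GENCODE M21, Btg1 (ENSMUSG00000036478) lies at chr10:96617006-96622809 on the plus strand. Btg2 (ENSMUSG00000020423) lies at chr1:134075170-134079120 on the minus strand, and Btg3 (ENSMUSG00000022863) at chr16:78332637-78377192, also minus. Tob1 (ENSMUSG00000037573) lies at chr11:94211454-94215495 on the plus strand and Tob2 (ENSMUSG00000048546) at chr15:81848272-81858796 on the minus strand. The 5 genes are on 5 different chromosomes, so none of them is a neighbour of another.

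The promoters of Btg2 and Btg1 are shown because Btg2 carries a cyclic AMP response element, the site of the activity-regulated factor CREB, and Btg1 carries only its core. The sequences are the 250 bases before the RefSeq start on GRCm38.p6, read 5′ to 3′ on the gene's strand, at chr1:134079156-134079405 for Btg2 and chr10:96616751-96617000 for Btg1. Capitals mark the response element in Btg2 and its core in Btg1.
Btg2: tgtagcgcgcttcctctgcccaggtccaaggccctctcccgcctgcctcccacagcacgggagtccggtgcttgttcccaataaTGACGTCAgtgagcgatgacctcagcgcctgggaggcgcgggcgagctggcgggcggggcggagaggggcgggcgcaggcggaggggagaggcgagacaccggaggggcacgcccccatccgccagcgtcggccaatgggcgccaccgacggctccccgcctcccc
Btg1: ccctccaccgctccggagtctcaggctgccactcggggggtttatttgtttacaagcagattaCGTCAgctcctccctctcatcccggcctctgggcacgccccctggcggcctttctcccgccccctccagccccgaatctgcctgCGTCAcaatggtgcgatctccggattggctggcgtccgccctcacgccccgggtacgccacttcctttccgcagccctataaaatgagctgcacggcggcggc
All 5 genes matched the RefSeq promoter table, Btg3 with 2 starts, which gave 6 windows. The full response element TGACGTCA was found in Btg2 alone, 166 to 159 bases before the start, and in 1.55% of all 32851 windows of the same length. Its core TGACG, searched on both strands and contained in the full element, was found in Btg2, at 187 to 183 and 103 to 99 bases before the start in Btg1, and at 96 to 92 bases before the start in Tob1, against 17.8% of all windows. The letters CCAAT or their complement were found in the windows of Btg1, Btg2, Btg3 and Tob1 and in 33.8% of all windows, and TATAAA in those of Btg1 and Tob1 and in 12.4% of all. The Egr site GCGGGGGCG, held by 2.57% of all windows, and the CArG box of serum response factor, held by 1.47%, were found in none of the 6. A match is a description of these letters, and no binding was measured.

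Btg2, the member that responds to neuronal activity and to p53, is given first because its values led to the choice of the family. On the standard diet the wild-type libraries KC890RL, KC894RLL, KC897RR and KC900RLL had 12.6, 12.1, 13.2 and 14.6 CPM. On the ketogenic diet the wild-type libraries KC842L, KC843RL, KC844RR and KC846L had 21.8, 23.0, 26.9 and 18.5 CPM, all above every library of the other 3 groups. Of all tested genes 2.46% were separated upward for diet in wild type. For the knockout on the ketogenic diet 1.98% were separated downward. The share of genes above all 3 other groups was not computed. The knockout standard diet libraries KC872RL, KC873RR, KC888LL and KC893RL had 11.2, 12.004, 13.7 and 10.9 CPM, and the knockout ketogenic libraries KC913RR, KC916RRL, KC934R and KC935LL had 12.6, 15.3, 11.9 and 15.1 CPM. The wild-type mean was thus 22.5 ± 3.46 CPM on the ketogenic diet against 13.1 ± 1.08 CPM on the standard diet (SD, n = 4 each), a fitted difference of 0.78 on the log2 scale or 1.72-fold. In the knockout the means were 13.7 ± 1.73 and 11.97 ± 1.27 CPM, a log2 difference of 0.20, with overlapping libraries. On the ketogenic diet the knockout was lower than wild type by a log2 difference of -0.71, and the interaction, the diet difference in the knockout minus that in wild type, was -0.58. Together with the knockout difference on the standard diet, these differences use the values by which Btg2 was chosen, so no test is given. The wild-type ketogenic group was also the deepest in total counts and had 3 of 4 libraries with the female pattern of Xist and Ddx3y, the same number as wild type on the standard diet.

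Between the genotypes on the standard diet Btg2 was at 11.97 ± 1.27 CPM in the knockout and 13.1 ± 1.08 CPM in wild type, and the libraries overlapped. The fitted log2 difference was -0.13. It was -0.21 without KC888LL, the library labelled knockout with the higher Kcna1 level, -0.087 without KC893RL, -0.074 without KC900RLL and -0.058 with Xist as a covariate. The diet difference of Btg2 in the knockout was 0.091 with Xist as a covariate.

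**Figure D1:**
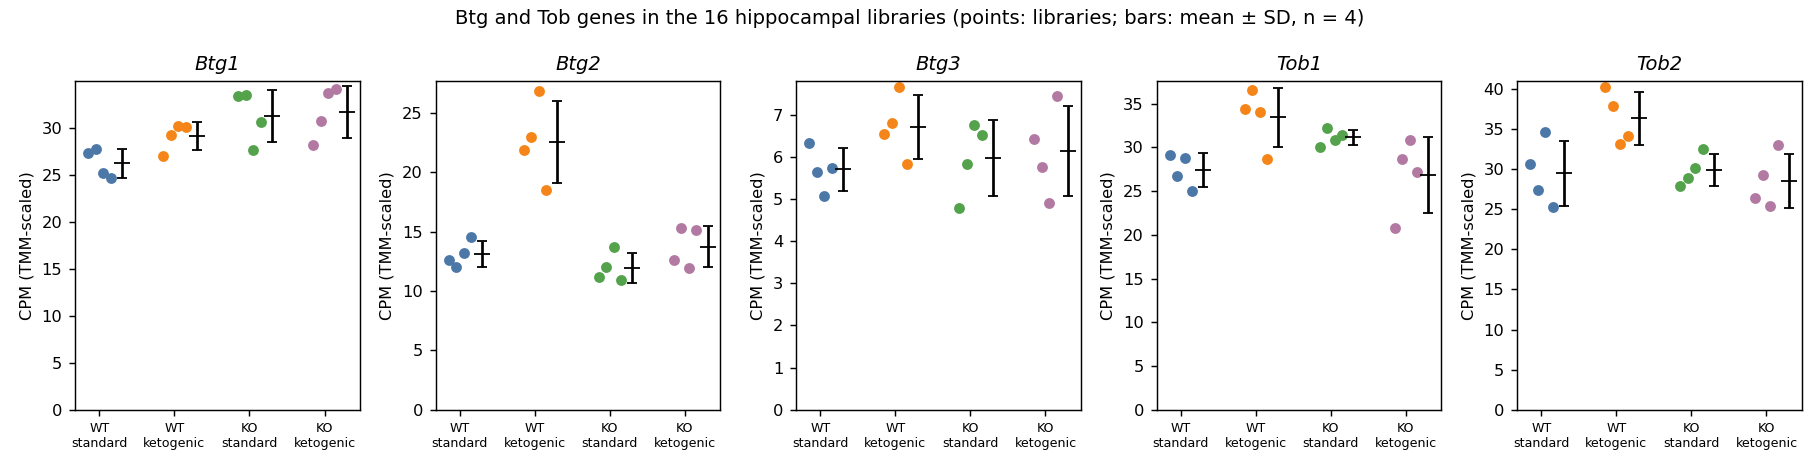
Levels of the 5 genes in CPM on linear axes from 0, with 1 point per library and bars for the group mean ± SD (n = 4). The wild-type ketogenic libraries of Btg2 sit at 18.5 to 26.9 CPM, above all 12 other libraries, and the groups of Btg3 overlap throughout. Btg2 was chosen on these values, and 2.46% of tested genes were separated upward for diet in wild type.

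Tob1, which binds both Caf1 and poly(A)-binding protein and restrains proliferation of resting lymphocytes, had diet differences of opposite sign in the 2 genotypes, neither of which passed the test. The wild-type standard diet libraries, in the order given for Btg2, had 29.1, 26.7, 28.8 and 24.96 CPM, and the wild-type ketogenic libraries 34.4, 36.6, 34.0 and 28.7 CPM. The knockout standard diet libraries had 30.1, 32.2, 30.9 and 31.4 CPM, and the knockout ketogenic libraries 20.8, 28.6, 30.8 and 27.1 CPM. All 4 knockout libraries on the standard diet were above all 4 wild-type libraries on it, a pattern in the same direction that 2.97% of tested genes had, and the knockout ketogenic library KC913RR was the lowest of all 16. On the standard diet the knockout mean was 31.1 ± 0.877 CPM against 27.4 ± 1.95 CPM in wild type (SD, n = 4). The fitted log2 fold change was 0.18 ± 0.10 (SE), with an adjusted p of 0.412 in edgeR. With ketogenic feeding the order was the other way, 26.9 ± 4.31 against 33.4 ± 3.36 CPM, with a log2 fold change of -0.31 ± 0.10 (adjusted p = 0.404 in edgeR). The ketogenic diet went with a log2 difference of 0.29 ± 0.10 in wild type (adjusted p = 0.781 in edgeR) and -0.21 ± 0.10 in the knockout (adjusted p = 0.289 in edgeR). The interaction was -0.50 ± 0.14, with an adjusted p of 0.654 in edgeR, so neither the differences nor their contrast passed the threshold of 0.05 over all genes. Without KC913RR, the lowest library, the diet difference in the knockout was -0.11 and the knockout difference on the ketogenic diet -0.21.

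Tob2, the closest relative of Tob1, was highest in the wild-type ketogenic group. Its wild-type standard diet libraries had 30.6, 27.4, 34.6 and 25.3 CPM and its wild-type ketogenic libraries 40.2, 37.9, 33.2 and 34.1 CPM. The knockout standard diet libraries had 27.9, 28.8, 30.1 and 32.5 CPM and the knockout ketogenic libraries 26.4, 29.3, 25.4 and 32.9 CPM. Among the ketogenic groups all knockout libraries were below all wild-type libraries, but by a narrow gap between 32.9 and 33.2 CPM, and 1.98% of tested genes were separated in that direction. The means there were 28.5 ± 3.39 and 36.3 ± 3.29 CPM (SD, n = 4). The fitted log2 fold change was -0.35 ± 0.10 (SE), with an adjusted p of 0.404 in edgeR. In wild type the ketogenic minus standard diet difference was 0.30 ± 0.10 on the log2 scale (adjusted p = 0.761 in edgeR), and the libraries overlapped. In the knockout the diet difference was -0.06 ± 0.10 (adjusted p = 0.793 in edgeR), from -0.14 without KC935LL to -0.0095 without KC934R, and the interaction -0.37 ± 0.14 (adjusted p = 0.654 in edgeR). The knockout difference on the standard diet was 0.02 ± 0.10 (adjusted p = 0.960 in edgeR), with a 95% interval from -0.19 to 0.23.

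Btg1, known for holding lymphocytes and neural stem cells in quiescence, had a higher mean in the knockout than in wild type on the standard diet, a difference that did not pass the test. The wild-type standard diet libraries had 27.3, 27.7, 25.2 and 24.6 CPM and the knockout standard diet libraries 33.3, 33.5, 27.6 and 30.6 CPM. The value of 27.6 CPM, which overlaps wild type, belongs to KC888LL, the library labelled knockout whose Kcna1 level lay between the genotypes. The log2 fold change was 0.25 ± 0.08 (SE, n = 4 per group), with an adjusted p of 0.202 in edgeR. Without KC888LL it was 0.31 ± 0.08 with an adjusted p of 0.0327 in edgeR, and Btg1 was then called, as were 5.73% of the 17725 genes tested without that library. In the ketogenic groups the wild-type libraries had 27.0, 29.3, 30.2 and 30.1 CPM and the knockout libraries 28.2, 30.7, 33.7 and 34.1 CPM, and the log2 fold change was 0.12 ± 0.08 (adjusted p = 0.649 in edgeR). The ketogenic diet went with differences of 0.15 ± 0.08 in wild type (adjusted p = 0.939 in edgeR) and 0.02 ± 0.08 in the knockout (adjusted p = 0.928 in edgeR). The interaction was -0.13 ± 0.11 (adjusted p = 0.805 in edgeR), and it was -0.080 without KC913RR, -0.041 with Xist as a covariate and -0.028 in the libraries with Xist and without Ddx3y.

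Btg3, the least abundant member, which is known as an inhibitor of E2F1, had 4.78 to 7.66 CPM over the 16 libraries, and its groups overlapped in each comparison. Its group means were 5.71 ± 0.519 and 6.71 ± 0.755 CPM in wild type on the standard and ketogenic diets, and 5.98 ± 0.892 and 6.14 ± 1.07 CPM in the knockout (SD, n = 4). The largest of its 4 pairwise log2 differences was 0.23 ± 0.15 for diet in wild type (adjusted p = 0.977 in edgeR). With 73 to 130 reads per library, its 95% intervals were the widest of the 5 genes, from -0.25 to 0.38 for the knockout on the standard diet. Its knockout difference on the ketogenic diet was -0.13 and ran from -0.23 without KC935LL to -0.031 without KC934R. Its interaction was -0.19 and ran from -0.30 without KC935LL to -0.092 without KC934R, and it was -0.46 in the libraries with Xist and without Ddx3y.

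**Figure D2:**
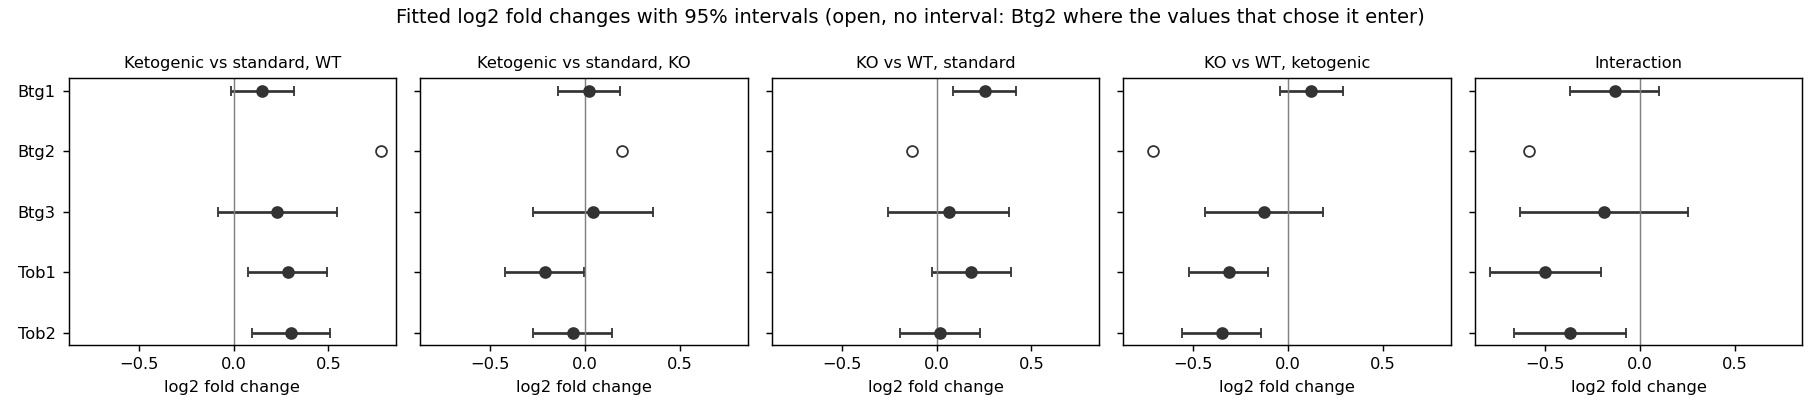
Fitted log2 fold changes of the 5 genes in the 4 pairwise comparisons and the interaction, with 95% intervals, not adjusted for the number of genes, from the fit to 16 libraries. Open points without intervals are Btg2, whose values chose it, and the intervals of Btg3 include 0 in all 5 rows.

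The 4 relatives of Btg2 are listed here without it, since its own directions were part of the choice. All 4 had a higher mean on the ketogenic diet in wild type, with a median log2 difference of 0.26, while the median of all tested genes was -0.0002 and 49.9% of them were higher. In the knockout, 2 were higher and 2 lower on the ketogenic diet, with a median of -0.02. Between genotypes 1 was higher and 3 were lower in the knockout on the ketogenic diet, with a median of -0.22, and 4 were higher and 0 lower on the standard diet, with a median of 0.12. The interaction was negative for all 4, with a median of -0.28. The signs for Btg3 and Tob2 on the standard diet changed when single libraries were left out, Btg3 without KC888LL and Tob2 without KC893RL, KC894RLL or KC900RLL. So did the diet signs in the knockout for Btg1, without KC888LL, KC934R or KC935LL, and for Btg3, without KC872RL or KC935LL. The comparisons share groups: the wild-type ketogenic libraries enter the wild-type diet difference, the knockout difference on that diet and the interaction, so these directions are not separate observations.

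None of the 4 relatives was called at an adjusted p under 0.05 in edgeR, nor in DESeq2 or limma-voom. On the standard diet 0 of 4 were called in the knockout against wild type, where 0.00572% of genes were called, and 1 of 4, Btg1, had an unadjusted p under 0.05, against 14.3% of all genes. In mice fed the ketogenic diet 0 of 4 were called, against 0.0172% of genes, and 2 of 4, Tob1 and Tob2, had an unadjusted p under 0.05, against 9.22%. For diet in the knockout 0 of 4 were called, against 1.16%, and 1 of 4, Tob1, passed unadjusted, against 16.9%. For diet in wild type 0 of 4 were called, against 0.0114%, and 2 of 4, Tob1 and Tob2, passed unadjusted, against 5.46%. In that comparison the groups of the 4 relatives overlapped, and 2.46% of genes were separated upward. For the interaction 0 of 4 were called, against 0% of all genes, and 2 of 4, Tob1 and Tob2, passed unadjusted, against 7.48%.

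Levels of different genes were compared per length, as CPM per kilobase (kb) of merged exons. Tob1 was the most abundant at 12.98 ± 1.68 CPM per kb (SD over 16 libraries), with no library of another member reaching its lowest value of 9.09 except Btg2 at its highest of 9.80. Btg1 at 5.61 ± 0.569, Btg2 at 5.59 ± 1.73 and Tob2 at 4.66 ± 0.651 CPM per kb overlapped one another, and Btg3 at 1.53 ± 0.209 was below every library of the other 4. In the wild-type ketogenic group Btg2 was at 8.22 ± 1.26 CPM per kb and Btg1 at 5.52 ± 0.279, and their libraries did not overlap, whereas in the knockout standard diet group Btg1 at 5.93 ± 0.523 was the higher of the pair, with Btg2 at 4.36 ± 0.463. The place of Tob2 depends on the length used: its longest transcript gives 7.48 CPM per kb, above Btg1 at 5.91.

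**Figure D3:**
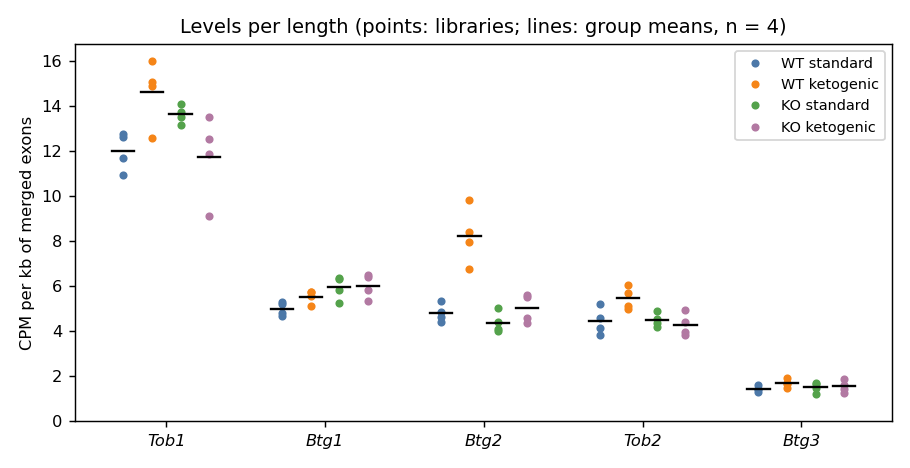
CPM per kb of merged exons for the 5 genes, with 1 point per library, lines for group means (n = 4) and colours for the 4 groups. Tob1 is highest at 12.98 on average, and Btg2 in the wild-type ketogenic group, at 8.22, lies above Btg1.

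The enzymes that the family recruits were measured as a list of 17 deadenylation genes, the CCR4-NOT subunits, the Pan2-Pan3 and Parn deadenylases and their poly(A)-binding partners, all of which were tested. None was called in any of the 4 comparisons by edgeR, DESeq2 or limma-voom, and 1, 1, 2 and 2 had an unadjusted p under 0.05 in edgeR for the knockout on the standard and ketogenic diets and for diet in the knockout and in wild type. Of the list, 13 were higher and 4 lower on the ketogenic diet in the knockout and 15 higher and 2 lower in wild type. The medians were log2 differences of 0.08 and 0.05, against 0.0069 and -0.0002 over all genes. Tnks1bp1, a CCR4-NOT associated protein, had the smallest p in the knockout at 0.17 ± 0.06 (SE), with an adjusted p of 0.171 (0.0467 without KC888LL), and Cnot3, a scaffold subunit, in wild type at 0.21 ± 0.07, with an adjusted p of 0.798. For the knockout against wild type 6 were higher and 11 lower on the standard diet, with a median of -0.03, and 8 higher and 9 lower on the ketogenic diet, with a median of -0.01. These medians were small and moved with single libraries. On the standard diet the median was -0.051 without KC888LL, with 3 at an unadjusted p under 0.05, -0.051 without KC894RLL and -0.016 without KC900RLL. On the ketogenic diet it ran from -0.068 without KC913RR to 0.022 without KC935LL, and it was also above 0 without KC916RRL. The diet medians were 0.051 in the knockout without KC913RR and 0.084 in wild type without KC844RR. Of 9 other binding partners, among them Cpeb proteins and Smads, 8 were tested and none was called by edgeR, DESeq2 or limma-voom, with 0, 1, 1 and 1 at an unadjusted p under 0.05 in the same order. Cpeb4, a poly(A) regulator, had the smallest p for diet in both genotypes, at 0.16 ± 0.06 in wild type (adjusted p = 0.799 in edgeR) and 0.13 ± 0.06 in the knockout (adjusted p = 0.281 in edgeR).

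Immediate early genes, transcribed within minutes of neuronal firing, were measured as a list of 25, all tested. In the knockout 5 were higher and 20 lower than in wild type on the standard diet, with a median of -0.50, and 8 were higher and 17 lower on the ketogenic diet, with a median of -0.45. In edgeR none was called in either, with 12 and 14 at an unadjusted p under 0.05. DESeq2 called 1 higher on the standard diet, Jun, and 5 lower on the ketogenic diet, Dusp1, Junb, Npas4, Nr4a1 and Per1, and limma-voom called none. Without KC888LL, edgeR called 2 higher and 9 lower on the standard diet. For the knockout with ketogenic feeding edgeR called Dusp1 without KC846L, Dusp1 and Per1 without KC916RRL, Per1 with no filter, Npas4 in a fit of only the 2 groups compared, and Fosb without KC913RR, where 3 were higher and 22 lower with a median of -0.84. The smallest p on the standard diet was that of Jun, a subunit of AP-1, at 0.40 ± 0.09 (adjusted p = 0.192 in edgeR), which was called without KC888LL (0.00242). Among the ketogenic groups it was that of Per1, a clock gene induced by stimulation, at -0.40 ± 0.08 (adjusted p = 0.170 in edgeR). With ketogenic feeding 18 were higher and 7 lower in wild type, with a median of 0.17, and 21 higher and 4 lower in the knockout, with a median of 0.20. In wild type edgeR, DESeq2 and limma-voom called none, with 2 at an unadjusted p under 0.05 in edgeR, and a fit of the 2 wild-type groups alone called Arc and Npas4 higher. In the knockout 1 was called lower, Klf4, a zinc finger transcription factor, at -0.95 ± 0.18 (adjusted p = 0.0184 in edgeR). Fitting only the 2 groups compared left Klf4 at -0.95 with an adjusted p of 0.120, and it was not called without KC872RL (0.0579) or without KC873RR (0.0741). Without KC888LL the median for diet in the knockout was 0.60, and Arc and Nr4a3 were called higher. Without KC913RR that median was -0.072, so its sign rested on 1 library, and it was 0.12 without KC872RL, 0.31 without KC935LL and 0.36 without KC934R. With Xist as a covariate it was 0.095. In the libraries with Xist and without Ddx3y it was 0.14, with 14 higher and 11 lower. The summed level of the list was 878 to 1027 CPM in the wild-type standard group and 1089 to 1189 CPM in the wild-type ketogenic group, which did not overlap. Of single tested genes 2.46% were separated upward there, a share that is no reference for a sum of 25 genes. In the knockout the sums were 651 to 910 and 700 to 1196 CPM, which overlapped. The part of this list's change in the level of Btg2 was not tested.

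Among the 20 p53 targets, 19 of which were tested, none was called by edgeR or limma-voom in any comparison, with 4, 0, 2 and 0 at an unadjusted p under 0.05 in edgeR for the knockout on the standard and ketogenic diets and for diet in the knockout and in wild type. DESeq2 called 1 lower for diet in the knockout, Phlda3, and without KC888LL edgeR called 2 lower there, Eda2r and Trp53inp1. On the ketogenic diet 7 were higher and 12 lower in wild type, with a median of -0.02. That median ran from -0.056 without KC846L to 0.0082 without KC842L. The gene with the smallest p for the knockout on the standard diet was Sesn1, a stress-induced sestrin, at 0.39 ± 0.12 (adjusted p = 0.202 in edgeR), and without KC888LL it was called (0.0369). Of 27 cell cycle genes 25 were tested and none was called by edgeR or limma-voom, with 5, 0, 2 and 0 at an unadjusted p under 0.05 in edgeR in the same order, and DESeq2 called 1, Ccnb1, lower for diet in the knockout. Of these, 19 were higher and 6 lower in the knockout on the standard diet, with a median of 0.22, and 7 higher and 18 lower on the ketogenic diet in the knockout, with a median of -0.19. The library KC872RL stood apart, with a list score (mean log2 CPM) of 3.45, while the other knockout standard diet libraries were at 2.70 to 2.81 and wild type on that diet at 2.64 to 2.79. Without it 14 were higher and 11 lower in the knockout on the standard diet, with a median of 0.012, and 12 higher and 13 lower for diet in the knockout, with a median of -0.0048. Ccnd2, cyclin D2, had the smallest p for the knockout on the standard diet at -0.40 ± 0.13 (adjusted p = 0.207 in edgeR), and without KC888LL it was called at -0.56 (0.00543). Ccnb1, cyclin B1, had low levels, with means of 1.66 and 0.379 CPM in the knockout on the standard and ketogenic diets. It had the smallest p for diet in the knockout at -2.06 ± 0.56 (adjusted p = 0.0810 in edgeR). Ccnb1 was called by edgeR without KC888LL (0.0335) or without KC934R (0.0328), where it stood at -3.04. Without KC872RL it was -1.30, with an adjusted p of 0.378 in edgeR, and with only the groups compared the adjusted p was 0.321.

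**Figure D4:**
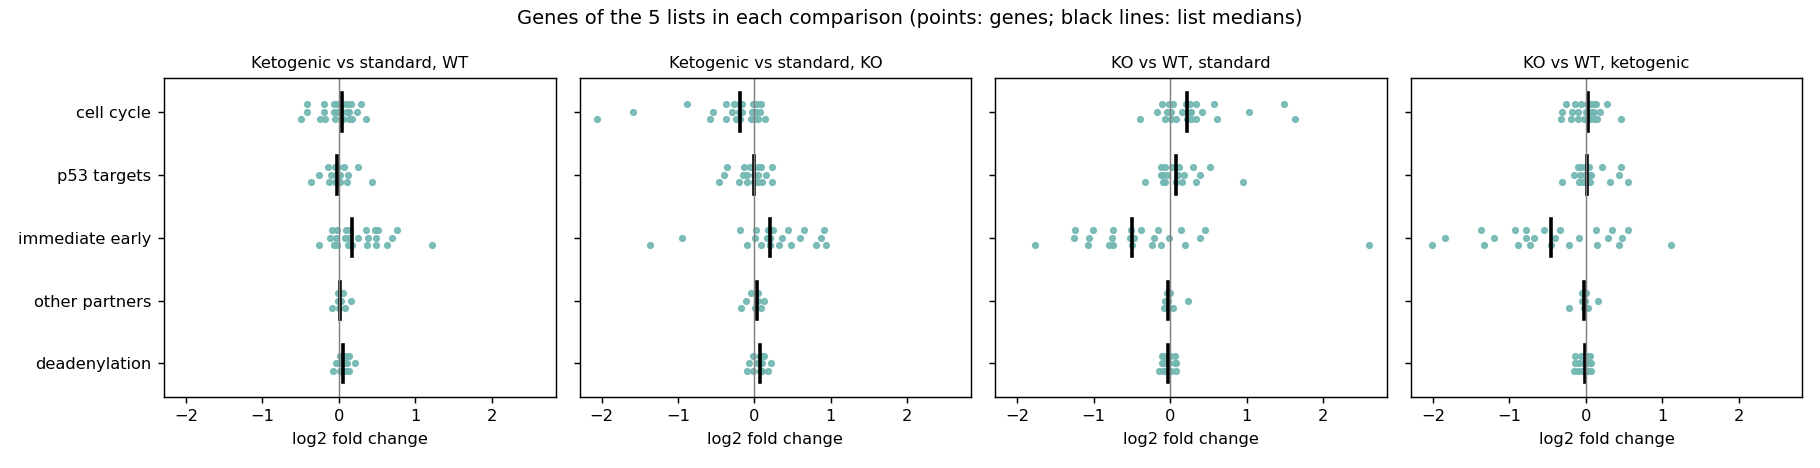
Fitted log2 fold changes of each tested gene (points) of the 5 lists in the 4 pairwise comparisons, on a shared axis, with the list median as a black line. The immediate early list has its medians at -0.50 and -0.45 for the knockout and the deadenylation list stays within a narrow band.

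Markers of other cell types were compared between the same groups as the members, and in the main fit edgeR called some of them only for diet in the knockout. The summed level of 14 oligodendrocyte markers was 4334 to 6742 and 3576 to 4557 CPM in wild type, and 5391 to 5968 and 2091 to 3913 CPM in the knockout, on the standard and ketogenic diets. All 14 were lower on the ketogenic diet in each genotype. In wild type edgeR, DESeq2 and limma-voom called 0 of them, with 13 at an unadjusted p under 0.05 in edgeR. In the knockout it called 11, among them the myelin genes Mbp, Mog, Mag and Mobp, with a median of -0.85 over the list, and Trf, transferrin, had the smallest p at -0.82 ± 0.13 (adjusted p = 0.0104). That count was 2 without KC872RL, 4 without KC873RR, 6 without KC913RR or KC916RRL and 7 without KC893RL, 1 with only the groups compared or with Xist as a covariate, and 0 in the libraries with Xist and without Ddx3y, while DESeq2 called all 14. All 14 kept an unadjusted p under 0.05 in each of these, and the median stayed between -0.99 and -0.72 as libraries were left out. Microglial markers, 16 of 16 tested, summed to 343 to 390 and 349 to 378 CPM in wild type and 352 to 784 and 319 to 343 CPM in the knockout. For diet in the knockout all 16 were lower, with a median of -0.83 and 15 at an unadjusted p under 0.05, and edgeR called 1, Itgam, an integrin of myeloid cells, at -1.14 ± 0.27 (adjusted p = 0.0483). It called 14 without KC888LL and 10 without KC893RL, and DESeq2 called 12, while limma-voom, the fit of only the groups compared and edgeR without any one of KC872RL, KC873RR or a knockout ketogenic library called 0. The median was -0.35 with Xist as a covariate and -0.15 in the libraries with Xist and without Ddx3y, where 12 were lower and 4 higher. For the knockout on the standard diet all 16 were higher, with a median of 0.75 and 14 at an unadjusted p under 0.05, of which edgeR and limma-voom called 0 and DESeq2 3, and edgeR without KC888LL 12. Of that group 2 libraries stood apart: the list score was 5.14 in KC872RL and 5.13 in KC873RR, against 3.86 in KC888LL, 3.99 in KC893RL and 3.84 to 4.01 in wild type on that diet. Without KC872RL the median was 0.49, with 5 at an unadjusted p under 0.05, with Xist as a covariate it was 0.34, and in the libraries with Xist and without Ddx3y it was -0.050, with 6 higher and 10 lower.

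Reactive astrocyte markers, 10 of 13 tested, summed to 386 to 513 and 404 to 436 CPM in wild type and 456 to 2905 and 392 to 2522 CPM in the knockout on the standard and ketogenic diets. All 10 were higher in the knockout on either diet, with medians of 0.99 and 1.42, and edgeR, DESeq2 and limma-voom called 0 in both, with 4 and 6 at an unadjusted p under 0.05 in edgeR. The smallest p was that of Serpina3n, a secreted protease inhibitor, at 1.63 ± 0.54 on the standard diet (adjusted p = 0.226 in edgeR) and of Hspb1, a heat shock protein, at 1.61 ± 0.51 on the ketogenic diet (adjusted p = 0.417 in edgeR). Without KC888LL Serpina3n was called. The ketogenic median rested on 1 library: KC913RR had a list score of 5.71, against 4.04 in KC934R, 3.28 in KC916RRL, 3.31 in KC935LL and 3.15 to 3.33 in wild type on that diet, and without it the median was 0.26. On the standard diet the scores were 4.95 in KC872RL, 4.55 in KC873RR, 3.94 in KC893RL and 3.39 in KC888LL, against 3.21 to 3.55 in wild type, and the median was 0.40 in the libraries with Xist and without Ddx3y, with 8 higher and 2 lower. Astrocyte markers, 8 of 8 tested, summed to 4354 to 4848 and 4368 to 4802 CPM in wild type and 4518 to 5587 and 4196 to 4996 CPM in the knockout, and 1, S100b, a calcium-binding protein, was called lower for diet in the knockout at -0.59 ± 0.12 (adjusted p = 0.0291 in edgeR). Blood markers, 5 of 6 tested, summed to 62.7 to 77.6 and 42.7 to 105 CPM in wild type and 65.8 to 113 and 17.4 to 32.5 CPM in the knockout. For diet in the knockout edgeR called 4 of the 5 lower, the globin genes Hbb-bs, Hbb-bt and Hba-a1 and Alas2, an enzyme of haem synthesis, with a median of -2.02, and it called 3 with only the groups compared, 1, Hbb-bt, with Xist as a covariate and 0 in the libraries with Xist and without Ddx3y, where the median was -1.79. The median for the knockout on the ketogenic diet was -1.64, with 0 called by edgeR and 4 at an unadjusted p under 0.05, while DESeq2 called 4, and edgeR 2 without KC846L and 1 with no filter. Choroid plexus markers, 6 of 6 tested, summed to 33.8 to 1065 and 30.6 to 1040 CPM in wild type and 47.3 to 553 and 32.2 to 53.2 CPM in the knockout. None was called by edgeR, DESeq2 or limma-voom, with 1 at an unadjusted p under 0.05, Folr1, a folate receptor, for diet in the knockout at -3.67 ± 1.62 (adjusted p = 0.274 in edgeR). Thalamic markers, 6 of 6 tested, summed to 138 to 174 and 123 to 140 CPM in wild type and 144 to 193 and 101 to 151 CPM in the knockout, and 1, the transcription factor Tcf7l2, was called lower for diet in the knockout at -1.24 ± 0.28 (adjusted p = 0.0418 in edgeR). Endothelial markers, 9 of 9 tested, summed to 309 to 351 and 303 to 349 CPM in wild type and 342 to 409 and 278 to 327 CPM in the knockout, and 1, the glucose transporter Slc2a1, was called lower for diet in the knockout at -0.48 ± 0.10 (adjusted p = 0.0222 in edgeR). For diet in the knockout all 6 thalamic markers were lower, with a median of -0.53. Of these, 5 had an unadjusted p under 0.05 in edgeR. Of 9 endothelial markers 7 were lower and 2 higher there, with a median of -0.23 and 5 passing unadjusted. None of Itgam, S100b, Tcf7l2 and Slc2a1 was called without KC872RL or without KC913RR. The count of called genes was unchanged in 5, 5 and 6 of 15 alternatives for the astrocyte, thalamic and endothelial lists. It ranged from 0 to 2, 0 to 3 and 0 to 2. Of 7 T and B cell markers 1, Ptprc, was tested, and the list summed to 1.84 to 9.76 CPM over all libraries. Neuron markers, 8 of 8 tested, were all lower in the knockout on the standard diet, with a median of -0.16 and 5 at an unadjusted p under 0.05, and all higher for diet in the knockout, with a median of 0.15 and 4 at an unadjusted p under 0.05. Of these, edgeR and limma-voom called 0, and DESeq2 called Tubb3, a neuronal tubulin, for diet in the knockout. With 1 library left out edgeR called up to 1 neuron marker in each of these comparisons. In the libraries with Xist and without Ddx3y the medians were -0.082 and 0.058. Interneuron markers, 7 of 7 tested, were all higher in the knockout on the standard diet, with a median of 0.16, and 6 were higher on the ketogenic diet, with a median of 0.21, which was 0.13 without KC913RR. There edgeR and limma-voom called 0, with 3 and 4 at an unadjusted p under 0.05 in edgeR, and DESeq2 called Npy on the standard diet and Gad2 on the ketogenic diet. With 1 library left out edgeR called up to 1 interneuron marker on each diet. The markers of dentate granule cells, CA1 and CA3 pyramidal cells and oligodendrocyte precursors, 6, 5, 5 and 7 genes, had none called by edgeR or limma-voom in the 4 comparisons, with at most 2, 1, 2 and 4 at an unadjusted p under 0.05 in any of them. DESeq2 called C1ql2 of the dentate list higher in the knockout on both diets and Olig1 of the precursor list lower for diet in the knockout. The dentate list as a whole had 2 markers higher and 4 lower in the knockout on each diet. Its medians were -0.18 on the standard and -0.29 on the ketogenic diet. With 1 library left out edgeR called up to 3 dentate markers for the knockout on the standard diet and up to 1 for diet in the knockout. It called up to 1 CA1 marker for the knockout on the ketogenic diet. For diet in wild type all 6 dentate and all 5 CA1 markers were higher, with medians of 0.27 and 0.17. There 3 CA3 markers were higher and 2 lower, with a median of 0.02, and all 7 precursor markers lower, with a median of -0.20. Tob1 and Tob2 had their lowest means in the knockout ketogenic group. For Tob1 this was 26.9 CPM, with KC913RR at 20.8 CPM, against 27.4 CPM in wild type on the standard diet. The knockout ketogenic group had sums of blood markers and of microglial markers below every library of the other groups. The gap for the microglial ones was between 342.6 and 342.95 CPM. Shares of single genes are no reference for such sums. The oligodendrocyte and endothelial sums of the knockout ketogenic group overlapped those of wild type on that diet. On that diet all 14 oligodendrocyte markers were lower in the knockout than in wild type, with a median of -0.39. Of these, 6 had an unadjusted p under 0.05 in edgeR and 0 were called. That median ran from -0.57 to -0.23 as libraries were left out. In bulk tissue fewer cells of a type and less RNA per cell cannot be told apart. The part of these cells in the member levels was not tested.

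Within groups, deviations of log2 CPM from the group mean were compared over 16 libraries, which do not use the differences between group means. None of the 10 pairs of members passed a two-sided permutation test after Benjamini-Hochberg adjustment. The strongest was Btg2 with Btg3, at Pearson r = 0.56 (permutation p = 0.0545, adjusted p = 0.545) and Spearman rho = 0.47 (permutation p = 0.116), and r was 0.42 without KC844RR and KC846L. Tob1 with Tob2 gave r = 0.37 (permutation p = 0.260, adjusted p = 0.744). Against list scores, the mean log2 CPM of the tested genes of a list, 25 relations were computed and none passed. Btg1 against the immediate early score gave r = -0.78 (permutation p = 0.00332, adjusted p = 0.0600) and rho = -0.77 (permutation p = 0.00557), and r was -0.72 without KC913RR and KC934R. It passed when KC873RR, KC890RL or KC893RL was left out, with r of -0.84, -0.80 and -0.81. Btg2 against the p53 target score gave r = -0.73 (permutation p = 0.00480, adjusted p = 0.0600) and rho = -0.74 (permutation p = 0.00604), and r was -0.76 without KC913RR and KC935LL. It passed without KC890RL (r = -0.77) or KC913RR (r = -0.78). Btg3 against the p53 target score gave r = -0.53 (permutation p = 0.106, adjusted p = 0.306) and rho = -0.54 (permutation p = 0.0706), and r was -0.66 without KC913RR and KC935LL. It passed without KC913RR, at r = -0.81 with an adjusted permutation p of 0.0441. Btg2 against the immediate early score gave r = 0.27 (permutation p = 0.438, adjusted p = 0.633) and rho = 0.51 (permutation p = 0.0659). That r rested on 1 library: without KC913RR it was 0.75, with an adjusted permutation p of 0.0385. Tob1 against the oligodendrocyte score gave r = 0.74 (permutation p = 0.0189, adjusted p = 0.157), and 0.46 without KC900RLL and KC913RR. Tob2 against that score gave r = 0.59 (permutation p = 0.0629, adjusted p = 0.306). Against the microglial score Tob2 gave r = -0.33 (permutation p = 0.0434, adjusted p = 0.271) and rho = -0.52 (permutation p = 0.0355).

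**Figure D5:**
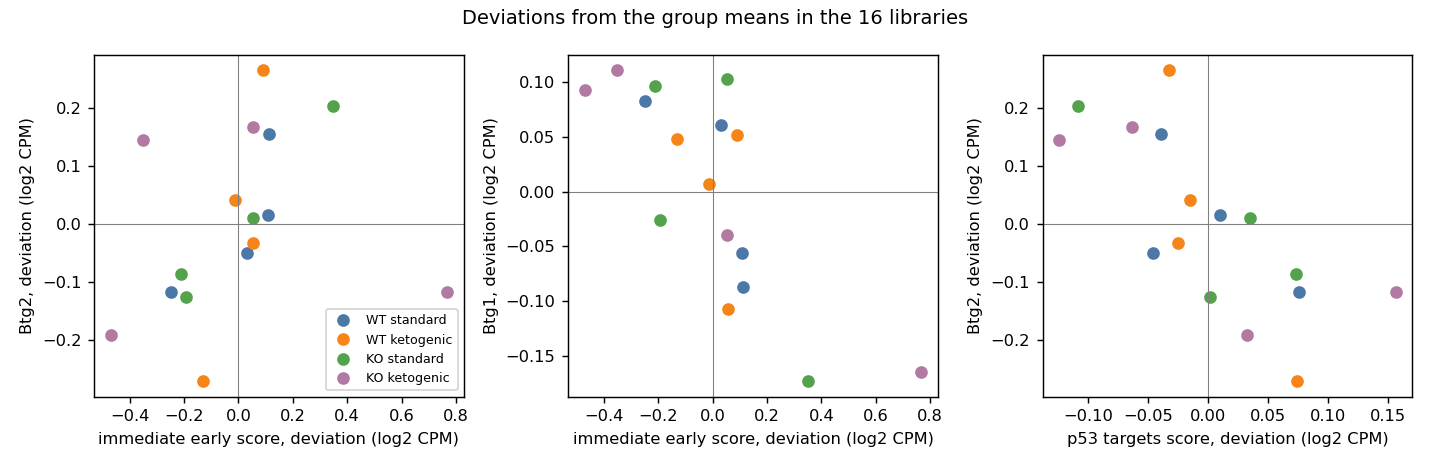
Deviations of Btg2 and Btg1 from their group means against deviations of the immediate early or p53 target score, both in log2 CPM, with 1 point per library coloured by group. Higher scores go with lower Btg1 for the immediate early list (r = -0.78) and with lower Btg2 for the p53 targets (r = -0.73), and neither passed adjustment.

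The genes whose log2 CPM over the 16 libraries was most like that of each member were ranked by Pearson r among the 15416 genes with a mean of at least 1 CPM, without a test. For Btg2 they were Dusp1, a phosphatase of MAP kinases induced by stimulation, at r = 0.90, Npas4, an activity-dependent transcription factor, at 0.87, the helicase Ddx55 at 0.86, the CCR4-NOT subunit Cnot10 at 0.83 and Ovca2 at 0.83. Dusp1 and Npas4 are also members of the immediate early list. For Btg1 they were Tspan11 at 0.89, Cdh9 at 0.84 and Tmem209 at 0.84, and for Btg3 Akr7a5 at 0.85, Zfp639 at 0.79 and Zfp410 at 0.78. For Tob1 they were Rhobtb1 at 0.85, Gm8066 at 0.83 and Hcfc1r1 at 0.82, and for Tob2 Tgfbr3 at 0.85, Xrcc1 at 0.79 and Polr3e at 0.78. These r values include the differences between groups, and all genes share the same 16 libraries. For Btg2 the differences include those by which it was chosen. Its ranking is therefore a description and no support for a link to the immediate early list. No gene was named for more than 1 member.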

How the data were processed

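RNA sequencing of hippocampus was deposited by the authors as 1 table of raw counts per gene for 16 libraries. DESeq2 and the mm10 build are named in the submitters' processing notes; the aligner, the annotation, the counting program and its use of strand are not given in the sources used here. Columns were assigned to groups by the genotype and diet in their names and are called by animal tag.

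The tests were run in R 4.3.3 with edgeR 4.0.16: filterByExpr, TMM, a robust quasi-likelihood fit with 1 coefficient per group to all 16 libraries (12 residual degrees of freedom), two-sided F tests and Benjamini-Hochberg adjustment over 17469 genes, called under 0.05. At least 99.8% of each library's counts were in tested genes. A prior count of 2 was added for log2 CPM. The scripts were tested on simulated data. Correlations used 100000 permutations within groups. The text names the members, the 5 (Btg2) or 3 genes most like each, and from the lists described the called genes or, where the text names one, the gene with the smallest p in that comparison. Some called genes of the marker lists are counted but not reported by name here. Genes named as called by an alternative were chosen after their values were seen. The members and lists were chosen with earlier results of these data known. The labels name separate samples but not their litters or batches, so p-values measure the spread between these libraries. Btg2 had been planned to be tested between genotypes on the standard diet and was left untested there, since all 4 groups entered its choice. Alternatives were DESeq2 1.42.0, limma-voom (limma 3.58.1), DESeq2 size factors in edgeR, no filter, a prior count of 0.5, only the groups compared, Xist as a covariate, only libraries with Xist and without Ddx3y, the longest transcript, and each library left out. The same alternatives for the gene and marker lists were added after the data had been seen.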

Additional observations from a re-analysis of the deposited data

Results flagged for a closer look

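Tob1 was noted for a closer look because its effects pointed in opposite directions. On the standard diet the knockout libraries were all above the wild-type mean, and on the ketogenic diet all below it; the difference between the 2 knockout effects was -0.50 on the log2 scale. The diet effect likewise went up in wild type and down in the knockout, with the same difference of -0.50, since both are the interaction. The interaction was tested, with an adjusted p of 0.654 in edgeR, so it did not pass. In the 20 combinations of gene and group, Dixon's test marked 0 libraries as far from the other 3 of their group. With 4 libraries it marks one only where its gap to the nearest makes up most of the group's range, so single libraries can still weigh on a value: without KC913RR the Tob1 diet difference in the knockout was -0.11 rather than -0.21.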

How the results depend on the processing

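No paired analysis was possible because the columns carry animal tags and no replicate numbers. Of 328 alternative values of the 20 tested member differences, 316 kept their direction and their side of the threshold, and 11 changed sign. The 82 alternative values of the 5 Btg2 differences, which had no test, kept their sign and moved by less than the spread between replicates. They use the values by which Btg2 was chosen, so the kept signs are a description and no support. Its libraries did not overlap for diet in wild type or for the knockout on the ketogenic diet. Leaving out 1 library could not reverse the order of the groups there. Btg2 stayed at 0.69 to 0.87 for diet in wild type as each library was left out. Without KC913RR Tob1 moved from -0.21 to -0.11 for diet in the knockout and from -0.31 to -0.21 for the knockout on the ketogenic diet. Without KC888LL, Btg1 for the knockout on the standard diet was 0.31 and called, so 1 member instead of 0 was called; its range over left-out libraries was 0.22 to 0.31. The cause was not tested. Small differences changed sign as libraries were left out: Btg3 ran from -0.0088 to 0.16 and Tob2 from -0.047 to 0.10 for the knockout on the standard diet, and Btg1 from -0.032 to 0.071 and Btg3 from -0.068 to 0.14 for diet in the knockout. With Xist as a covariate, and in libraries with Xist and without Ddx3y, Btg3 was there -0.068 and -0.12, Btg1 0.098 and 0.12 and Tob2 -0.12 and -0.14, and for the knockout on the standard diet Btg3 was 0.13 and 0.27 and Tob2 0.052 and 0.10. Correlations of deviations that changed sign ran from -0.013 to 0.51 for Tob1 with Btg1, -0.33 to 0.0040 for Tob2 with Btg1, -0.018 to 0.49 for Tob1 with Btg2, -0.27 to 0.21 for Tob1 with Btg3, -0.24 to 0.58 for Btg1 with p53 targets and -0.36 to 0.71 with reactive astrocyte markers, -0.0024 to 0.43 for Btg2 with oligodendrocyte and -0.39 to 0.072 with microglial markers, -0.0016 to 0.43 for Btg3 with oligodendrocyte markers, -0.70 to 0.11 for Tob1 with immediate early genes and -0.61 to 0.27 with reactive astrocyte markers, and -0.30 to 0.18 for Tob2 with immediate early genes. Relations with list scores that passed numbered 0 to 3 as libraries were left out. The longest transcript gave 2.04 CPM per kb for Btg3 and 7.48 for Tob2. Over all genes, calls ranged from 0 to 1016 (1 in the main fit) for the knockout on the standard diet and from 1 to 45 (3) on the ketogenic diet, and from 3 to 1096 (202) for diet in the knockout and 0 to 12 (2) in wild type, and were 0 to 7 (0) for the interaction. Klf4 was not called in 5 of 15 alternatives. With Xist as a covariate the cell cycle median for the knockout on the standard diet was 0.10, against 0.22, and in the libraries with Xist and without Ddx3y it was 0.031.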
